A study of Homo sapiens with 3 samples.

Results

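The tumour necrosis factor (TNF) ligand and receptor superfamilies were examined in HEK293T cells, an established human line of embryonic kidney origin that expresses SV40 large T antigen. Members were chosen by gene symbol: every TNFRSF or TNFSF symbol followed by a number, with or without a letter, plus TNF, LTA, LTB, LTBR, CD40, CD40LG, CD27, CD70, FASLG, NGFR, EDA, EDAR and RELT. This gave 45 of the 35880 gene symbols in the table, 27 receptors and 18 ligands. FAS and EDA2R belong to the receptor superfamily by function, but their symbols lay outside the choice and they were read among the genes that act with the receptors. The cells were untreated, grown in high-glucose medium with 10% serum and harvested at 70% confluence, and 3 libraries labelled as biological replicates 1, 2 and 3 formed the only group. The study had no contrast between conditions, so each level was compared with 1 TPM, where TPM is the abundance unit scaled by transcript length and by the total of a library.

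TNF ligands are mostly trimeric membrane proteins, some of which are cut from the surface by proteases, and each binds 1 or more receptors on the same or on other cells. Receptors with a cytoplasmic death domain recruit adaptors such as TRADD and FADD and can start apoptosis, receptors without one bind TRAF adaptors and activate NF-κB and MAP kinases, and decoy receptors bind ligand without passing on a full signal. Many ligands of the family are made chiefly by activated lymphocytes and myeloid cells, whereas several receptors are widespread in epithelial and other tissue cells.

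Depth and identity were read from the whole table. One column of estimated counts, which matched replicate 1, summed to 33184885, which puts a transcript of 2000 effective bases at 1 TPM at about 47.5 estimated counts. Log2 TPM of the 13049 genes at 1 TPM or more in every library correlated between libraries with a Pearson r of 0.995 in each pair, across genes, which are not independent replicates. All 10 genes fixed as described for HEK293T, among them VIM, NEFL, NEFM and LIN28B, were called above 1 TPM, and the lowest was PAX2 at 1.57 ± 0.0836 TPM (SD, n = 3). Of 19802 protein-coding symbols, 61.5% were called above as well. The marker lists were chosen with earlier results of these data known, so these counts describe the cells and do not test their identity. Of 12 blood cell markers 6 were called below, 1 was undecided and 4 were listed at 0, including CD3E and MS4A1. Of 6 endothelial markers limma called 0 above, also at an unadjusted p, 4 were below and 2 were listed at 0.

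The most abundant members were receptors, up to 30.02 TPM, but many members of both kinds were low in these cells. Of 27 receptors 11 were called below 1 TPM and 4 were listed at 0, and of 18 ligands 10 and 4. Of the 45 members, 14 were called above 1 TPM (11 receptors and 3 ligands), 21 below, 2 were undecided (LTBR and TNFSF12), and 8 were listed at 0 in all 3 libraries. In bulk RNA, a low level in every cell and a higher level in few cells cannot be told apart. Calls came from limma's moderated test of log2(TPM + 0.01) against 1 TPM with Benjamini-Hochberg adjustment over all 21990 symbols above 0 in at least 1 library, at an adjusted p under 0.05. Over all those symbols 58.5% were called above and 33.9% below, and over the 17225 protein-coding ones among them 70.7% and 23.7%. With genes at 0 included, 31.1% of the 45 members were called above, beside 61.5% of 19802 protein-coding symbols and 35.8% of all symbols. The median member stood at 0.193 TPM, beside 6.25 TPM for the median protein-coding symbol and 0.0994 TPM for the median of all symbols. Separate cultures are not named in the labels, and a p-value here therefore reflects library-to-library spread that may be only technical.

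**Figure D1:**
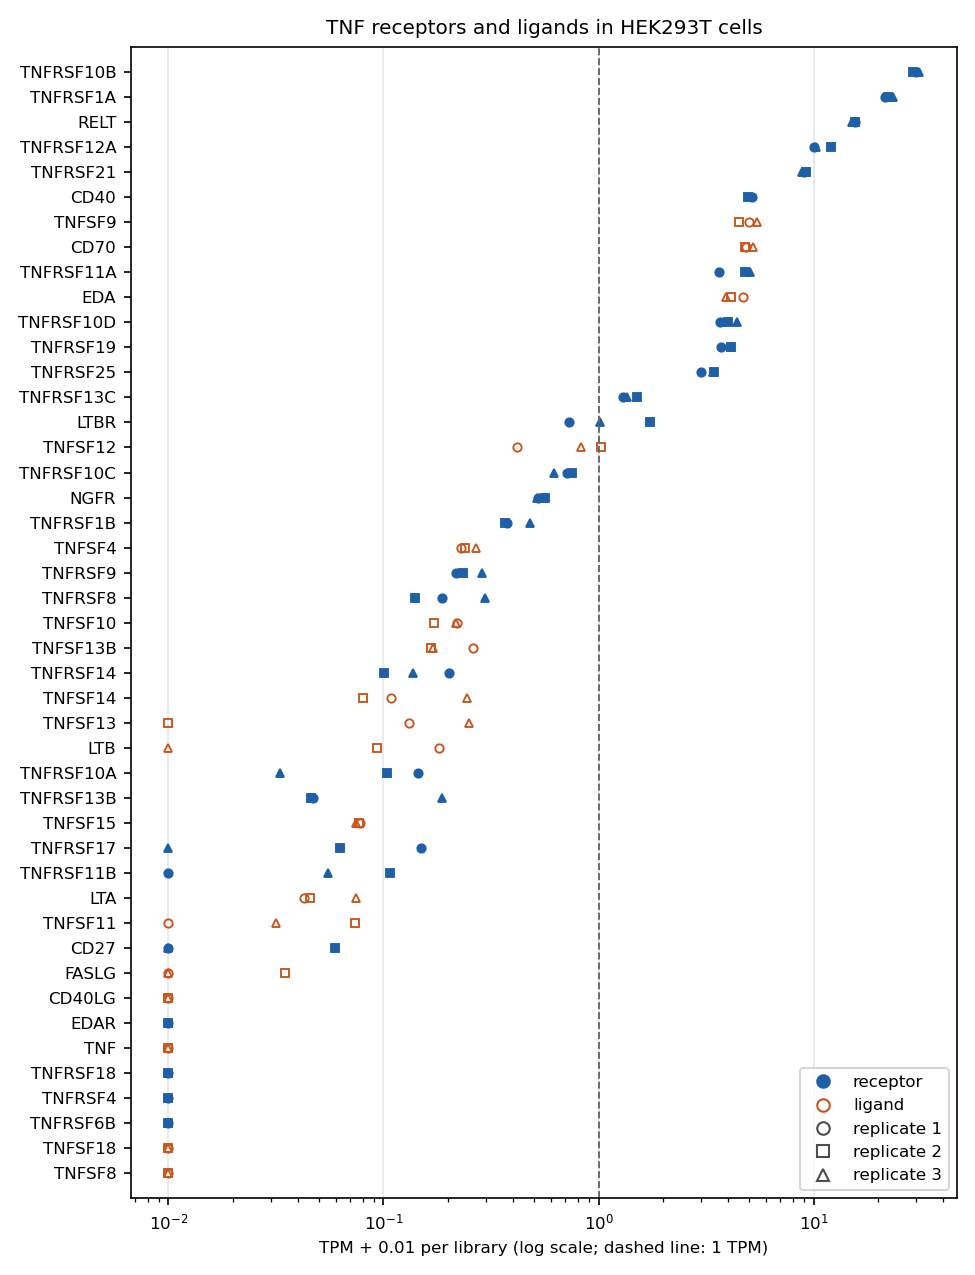
TPM + 0.01 of each of the 45 members in each of 3 libraries on a log axis, with filled symbols for receptors, open symbols for ligands and 1 marker shape per replicate. The 5 most abundant members are receptors, led by TNFRSF10B at 29.05 to 31.04 TPM, and the 8 members at the bottom are listed at 0 in every library.

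Death domain receptors held both of the highest levels of the family. Of 7 such receptors 4 were called above 1 TPM, 2 below and 1 (EDAR, the ectodysplasin receptor of hair, tooth and sweat gland development) was listed at 0. TNFRSF10B, a death receptor for the ligand TRAIL (TNFSF10), had 29.98, 29.05 and 31.04 TPM in replicates 1, 2 and 3. It was the most abundant member, higher than 73.9% of protein-coding symbols, with a log2 difference from 1 TPM of 4.89 ± 0.0285 (SE; adjusted p = 1.52e-08). TNFRSF1A, the widely expressed receptor that carries most signalling by soluble TNF, had 21.5, 22.1 and 23.5 TPM (log2 difference 4.47 ± 0.0355, adjusted p = 4.24e-08). Its 3 libraries lay above those of every other member but TNFRSF10B, and below those of TNFRSF10B.

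TNFRSF21, a death domain receptor best known from neurons and T cells, had 8.997, 9.199 and 8.859 TPM. TNFRSF25, the receptor of TNFSF15, had 3.00, 3.44 and 3.40 TPM, though little of this came from coding transcripts. NGFR, the neurotrophin receptor without kinase activity, was called below 1 TPM with 0.513, 0.556 and 0.507 TPM (adjusted p = 0.00780). TNFRSF10A, the other death receptor for TRAIL, had 0.135, 0.0935 and 0.0232 TPM. Both receptors bind the same ligand, yet the libraries of TNFRSF10B and TNFRSF10A were far from overlapping, with means of 30.02 and 0.0840 TPM.

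Among 16 receptors that act through TRAF adaptors, 6 were called above 1 TPM and 7 below, while LTBR was undecided and 2 were listed at 0. RELT, named from lymphoid tissue but found in many tissues, had 15.5, 15.5 and 15.1 TPM. TNFRSF12A, the receptor of the ligand TWEAK (TNFSF12) and a gene induced by growth factors, had 10.1, 12.0 and 10.2 TPM. CD40, which drives B-cell activation and is also found on epithelial cells, had 5.14, 4.93 and 5.06 TPM. The libraries of these 3 receptors did not overlap.

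TNFRSF11A, the receptor RANK of osteoclast precursors and mammary epithelium, had 3.61, 4.79 and 5.07 TPM. TNFRSF19, an orphan receptor best known from embryonic skin and the nervous system, had 3.72, 4.10 and 4.12 TPM. TNFRSF13C, the B-cell receptor for the survival factor BAFF (TNFSF13B), had 1.29, 1.49 and 1.35 TPM. It was close to the level tested, with a log2 difference of 0.45 ± 0.117 (adjusted p = 0.0188), and the call was lost without replicate 2 (adjusted p = 0.0647) or without replicate 3 (adjusted p = 0.0574). LTBR, the lymphotoxin beta receptor of stromal cells, had 0.717, 1.73 and 1.00 TPM and was undecided (log2 difference 0.10 ± 0.282, adjusted p = 0.734). Replicate 2 was the high library for LTBR, and without it the log2 difference was -0.24.

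The remaining TRAF-binding receptors were low. TNFRSF1B, the second TNF receptor, which prefers membrane-bound TNF and is typical of leukocytes and endothelium, had 0.365, 0.358 and 0.470 TPM and was called below (adjusted p = 0.00450). The T-cell costimulatory receptors TNFRSF9, TNFRSF8, TNFRSF14 and CD27 had means from 0.0166 to 0.236 TPM and were also called below. So were TNFRSF13B and TNFRSF17, TNF receptors found on B cells, with means inside that range. The call of TNFRSF17 was lost without replicate 2 (adjusted p = 0.0540), and CD27 was above 0 in replicate 2 alone, at 0.0497 TPM. TNFRSF18 and TNFRSF4, also costimulatory receptors of T cells, were listed at 0.

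Of 4 decoy receptors 1 was called above 1 TPM, 2 below and 1 was listed at 0. TNFRSF10D, a TRAIL receptor with a truncated death domain, had 3.648, 4.003 and 4.394 TPM. TNFRSF10C, a TRAIL receptor held to the membrane by a lipid anchor, had 0.700, 0.743 and 0.608 TPM (adjusted p = 0.0320), a call lost when any 1 library was left out (adjusted p from 0.0595 to 0.0955) and when mitochondrially encoded genes were taken out of the TPM (adjusted p = 0.0562). TNFRSF11B, the soluble decoy osteoprotegerin, was listed at 0 in replicate 1 and had 0.0976 and 0.0451 TPM in replicates 2 and 3. TNFRSF6B, the soluble decoy for FASLG, TNFSF14 and TNFSF15, was listed at 0.

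Only 3 of 18 ligands were called above 1 TPM, 10 were below, 1 was undecided and 4 were listed at 0. TNFSF9, the ligand of the costimulatory receptor TNFRSF9, had 4.99, 4.48 and 5.42 TPM (log2 difference 2.30 ± 0.0761, adjusted p = 9.70e-06). CD70, the ligand of CD27, had 4.83, 4.78 and 5.23 TPM (log2 difference 2.29 ± 0.0598, adjusted p = 3.72e-06). EDA, the ectodysplasin ligand of skin appendage development, had 4.70, 4.10 and 3.91 TPM (log2 difference 2.07 ± 0.0794, adjusted p = 1.74e-05). The libraries of TNFSF9 and CD70 overlapped with each other and with those of CD40 and TNFRSF11A, so no order among these 4 genes was larger than the spread. EDA overlapped with TNFSF9 and TNFRSF11A and lay below CD70 and CD40 in every library. TNFSF12 had 0.406, 1.01 and 0.819 TPM and was undecided (log2 difference -0.52 ± 0.312, adjusted p = 0.177). Its coding transcript held 0.180, 0.0845 and 0.188 TPM of this. With only coding transcripts summed, TNFSF12 was called below 1 TPM (log2 difference -2.72, adjusted p = 0.000627).

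The ligands called below 1 TPM ranged in mean from 0.00824 TPM (FASLG) to 0.236 TPM (TNFSF4). They included the apoptosis ligand TNFSF10 at 0.193 ± 0.0271 TPM, the B-cell factor TNFSF13B at 0.189 ± 0.0541 TPM, and the osteoclast factor TNFSF11, listed at 0 in replicate 1 and at 0.0633 and 0.0217 TPM in replicates 2 and 3. The lymphotoxins were low too: LTA had 0.0326, 0.0356 and 0.0643 TPM, and LTB had 0.170, 0.0832 and 0 TPM. The call of LTB was lost without replicate 2 (adjusted p = 0.0629), and that of TNFSF13, the B-cell factor APRIL, without replicate 1 (adjusted p = 0.0902). TNF itself, CD40LG, TNFSF8 and TNFSF18 were listed at 0. A value of 0 from the quantification can be a failed estimate, so these genes carry no test. The median ligand stood at 0.103 TPM and the median receptor at 0.525 TPM.

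Ligands were next compared with their receptors within each library. Of 34 known ligand and receptor pairs, 0 had both genes called above 1 TPM, whether the p was adjusted or not, and also when any 1 library was left out, when only coding transcripts were summed, and at a level of 0.5 TPM. In 10 pairs the receptor alone was called above, in 4 the ligand alone, and in 20 neither. Of the 18 ligands 16.7% were called above at all, and of the 27 receptors 40.7%. Only the 4 pairs with a ligand above could have both, and their receptors averaged at most 0.318 TPM. Whether 0 is fewer than these shares would give was not tested. The ligand was higher in every library in 10 pairs and lower in every library in 17, the libraries of 6 pairs gave no single order, and both genes of TNFSF18 and TNFRSF18 were listed at 0. Both counts include pairs with both genes below 1 TPM, such as TNFSF10 with TNFRSF11B and LTA with TNFRSF14. The 10 also include TNFSF14 and TNFSF15 set against TNFRSF6B, which was listed at 0. Pairs that share a gene are not independent, and 3 libraries cannot give an exact sign-flip p below 0.25, so no test was made.

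The 4 pairs with the ligand alone above 1 TPM were those of CD70, TNFSF9 and EDA. CD70 averaged 4.95 TPM and CD27 0.0166 TPM, a difference in log2(TPM + 0.1) of 5.46 ± 0.380 (ligand minus receptor, SD over libraries). TNFSF9 averaged 4.96 TPM and TNFRSF9 0.236 TPM, a difference of 3.92 ± 0.120. EDA averaged 4.24 TPM, whereas EDAR was listed at 0 and EDA2R, the X-linked second ectodysplasin receptor, averaged 0.318 TPM. Among pairs with the receptor alone above 1 TPM, TNFSF10 averaged 0.193 TPM and TNFRSF10B 30.02 TPM, a difference of -6.69 ± 0.102. TNFSF12 averaged 0.746 TPM and TNFRSF12A 10.8 TPM, a difference of -3.75 ± 0.498. TNF and CD40LG were listed at 0, against 22.3 TPM for TNFRSF1A and 5.05 TPM for CD40.

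**Figure D2:**
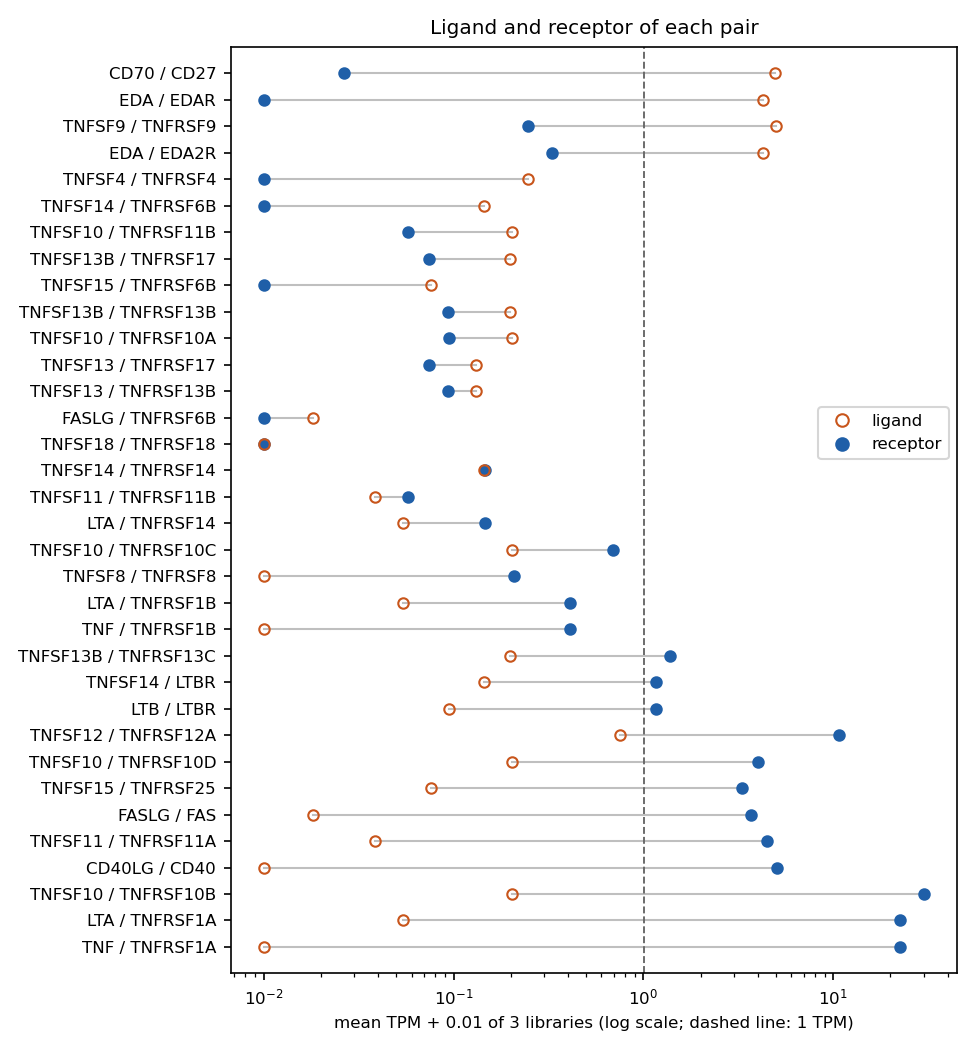
Mean TPM + 0.01 over 3 libraries, on a log axis, of the ligand (open) and the receptor (filled) of each of 34 pairs, joined by a line and sorted by ligand minus receptor. No pair has both points called above the dashed line at 1 TPM, 4 pairs at the top have the ligand called above it, and 10 near the bottom have the receptor called above it.

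Gene totals hide which transcripts carry them, and for several receptors little or none of the estimated TPM was assigned to coding transcripts. Transcript types were taken from GENCODE 29, to which 231 of the 299 member transcripts matched. Of the 15 members with a mean of at least 1 TPM, 13 had more than 50% of their TPM on protein-coding transcripts, and the lowest of these was TNFRSF12A at 74.4% ± 4.87. The exceptions were TNFRSF25 and LTBR. Of these 15 members 11 had several transcripts, and in 9 of the 11 the same transcript led in every library.

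LTBR had 0 TPM on its coding transcripts in all 3 libraries. Its whole level lay on transcripts with a retained intron, chiefly LTBR-202 with 0.634, 1.57 and 0.800 TPM, and rested on about 11.9 estimated counts in replicate 1. The bases that separate that transcript from the spliced coding form are given here in hg38 on the forward strand (chr12:6386036-6386065 is intron, chr12:6385350-6385379 the end of the fourth exon, and chr12:6386066-6386095 the fifth exon shared by both), with the retained intron and the fourth exon in capitals.
LTBR-202: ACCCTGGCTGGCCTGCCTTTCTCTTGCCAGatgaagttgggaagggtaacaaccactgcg
LTBR-201: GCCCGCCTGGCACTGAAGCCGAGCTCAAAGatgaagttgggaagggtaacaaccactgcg
Of the 2230 words of 31 bases in LTBR-201, 94 also occurred in LTBR-202, so the estimates for the 2 forms rested largely on different sequence.

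TNFRSF25 had 0.274, 0.335 and 0.686 TPM on coding transcripts, 13.0% ± 6.19 of the gene total. Retained-intron transcripts held 59.8% of its TPM and transcripts subject to nonsense-mediated decay 17.5%. With only coding transcripts summed, TNFRSF25 was called below 1 TPM (log2 difference -1.31, adjusted p = 0.00896), so the call made on the gene total was reversed. Its leading transcript in every library, with 0.727, 0.845 and 1.15 TPM, is a retained-intron form that runs from the first exon into the first intron, where the main coding form continues in the second exon (hg38, reverse strand, shared bases chr1:6466069-6466098, intron chr1:6466039-6466068, second exon chr1:6465531-6465560). Capitals mark the bases after the shared exon end.
TNFRSF25 retained-intron form: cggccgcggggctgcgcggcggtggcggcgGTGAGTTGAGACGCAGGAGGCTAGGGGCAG
TNFRSF25 coding form: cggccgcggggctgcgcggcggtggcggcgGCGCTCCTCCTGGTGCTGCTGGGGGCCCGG

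TNFRSF1B, which lies below 1 TPM, had its whole level on TNFRSF1B-203, a processed transcript that skips the second exon. The coding form TNFRSF1B-201 joins the first exon to the second and had 0 TPM in all libraries. The 2 forms share 3525 of the 3653 words of TNFRSF1B-201, and 28 words occur in TNFRSF1B-203 and not in TNFRSF1B-201, so the split rests on few positions and on about 29.2 estimated counts. Both junctions are shown on the forward strand of hg38 (first exon chr1:12167140-12167169, exon after the skipped one chr1:12190957-12190986, second exon chr1:12188796-12188825), with the bases after the junction in capitals.
TNFRSF1B-203: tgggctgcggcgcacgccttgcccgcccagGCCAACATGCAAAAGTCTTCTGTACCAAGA
TNFRSF1B-201: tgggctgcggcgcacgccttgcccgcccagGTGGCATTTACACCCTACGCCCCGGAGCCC

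With only coding transcripts summed, 13 members were called above 1 TPM, 18 below, 0 were undecided and 14 were at 0. On the same sum 70.2% of the 16542 symbols above 0 were called above and 25.5% below. These shares leave out symbols at 0, as the 14 members were. The 6 members that then stood at 0 although the gene total did not were CD27, LTB, LTBR, TNFRSF11B, TNFRSF14 and TNFRSF1B. For LTA, LTB, TNF and TNFRSF14 many transcripts in the table were not in the annotation used, so their types are unknown. The most abundant members lay mainly on coding transcripts: TNFRSF1A had 92.1% ± 3.89 of its TPM on coding transcripts, led by TNFRSF1A-201 with 18.1, 19.8 and 19.5 TPM. TNFRSF10B had 78.6% ± 5.62, on TNFRSF10B-201 with 15.6, 15.9 and 14.2 TPM and TNFRSF10B-202 with 7.15, 8.78 and 8.99 TPM, and retained-intron transcripts held 20.2%.

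**Figure D3:**
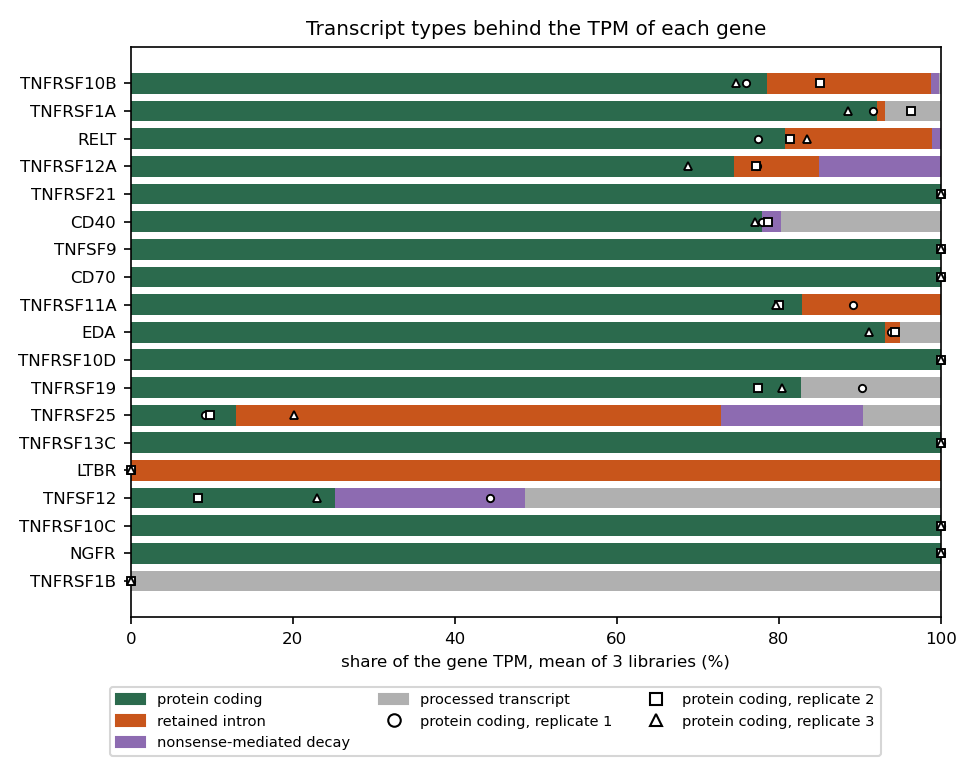
Share of each gene's TPM on protein-coding, retained-intron, nonsense-mediated decay and processed transcripts (bars, mean of 3 libraries, in percent) with the coding share of each library as a marker, for the 15 members with a mean of at least 1 TPM and the next 4 by mean. LTBR and TNFRSF1B have no coding TPM, TNFRSF25 has 13.0%, and TNFSF12 has 25.2%.

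The 2 members with different leading transcripts were CD70 and TNFRSF11A. A short coding transcript of 572 bases led CD70 in replicates 1 and 3 with 3.24 and 3.55 TPM, and a coding transcript of 913 bases led in replicate 2 with 2.45 TPM, although the gene total differed little between libraries. TNFRSF11A was led by TNFRSF11A-205, TNFRSF11A-201 and TNFRSF11A-207 in replicates 1, 2 and 3. TNFRSF11A-201 and TNFRSF11A-205 together gave 1.43, 1.49 and 1.22 TPM, with nearly all of it on TNFRSF11A-205 in replicate 1 and on TNFRSF11A-201 in replicates 2 and 3. The sum varied little while the split between the 2 transcripts was all or nothing.

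EDA is made in forms that differ by 6 bases and in the receptor they bind: the long form binds EDAR and the short form, which lacks the 2 residues those bases encode, binds EDA2R. The short-form transcript EDA-204 had 2.59, 2.77 and 2.21 TPM. The long-form transcripts EDA-203 and EDA-213 together had 1.27, 1.03 and 1.33 TPM, below the estimate for EDA-204 in every library. EDA-203 has 5278 bases and EDA-204 has 5272, so the split between these 2 rests on few positions. EDA-203 alone had 0.269, 0.187 and 0.891 TPM in replicates 1, 2 and 3. EDA-213, with 0.997, 0.848 and 0.440 TPM, has 777 coding bases, beside 1173 in EDA-203. The stretch is shown for both forms on the forward strand of hg38 (chrX:70033493-70033528 and chrX:70035358-70035387 in the long form), with the extra bases in capitals.
EDA-203: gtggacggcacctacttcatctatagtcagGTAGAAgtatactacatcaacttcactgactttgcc
EDA-204: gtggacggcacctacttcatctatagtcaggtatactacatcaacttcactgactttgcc
EDA2R, the receptor of the short form, had 0.354, 0.293 and 0.307 TPM and was called below 1 TPM (adjusted p = 0.00257).

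TNFRSF6B was listed at 0, but its sequence was not absent from the quantified transcripts. All 1111 words of 31 bases in its transcript also occur in RTEL1-TNFRSF6B, a readthrough gene that runs from the neighbouring helicase RTEL1, so a read from TNFRSF6B could also be assigned to the readthrough gene. The readthrough transcripts, of 4824 to 5843 bases, also hold sequence that TNFRSF6B lacks. RTEL1-TNFRSF6B had 5.32, 5.26 and 4.78 TPM, of which 93.5% lay on retained-intron transcripts and 6.49% on transcripts subject to nonsense-mediated decay. Its leading transcript, RTEL1-TNFRSF6B-201, holds the whole TNFRSF6B transcript. The start of the TNFRSF6B coding region, found in every one of the 3 readthrough transcripts, is shown with its start codon in capitals (hg38, forward strand, chr20:63696768-63696827).
TNFRSF6B-201: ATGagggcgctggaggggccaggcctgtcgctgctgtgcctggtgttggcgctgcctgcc

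TNFSF12 and TNFSF13, which lie 401 bases apart on chromosome 17, share 27.9% and 51.2% of their words with the readthrough gene TNFSF12-TNFSF13, listed at 0 in replicates 1 and 3 and at 0.148 TPM in replicate 2. TNFRSF10C shares 12.4% of its words with AC107959.5, and TNFRSF13B 14.6% with TBC1D27P. Reads from shared words could be assigned to either gene, and how far this moved the levels was not tested. All other members shared at most 7.49% of their words with other symbols. The readthrough genes and the transcript details of TNFRSF1B were chosen after their values were seen.

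Promoter sequence was available for 28 of the 45 members in RefSeq (GRCh38.p14), and CG dinucleotides were counted in the 250 bases before the start of the first entry. The median was 23 CG in the 7 members called above 1 TPM (range 4 to 35), 4 in the 16 called below (range 0 to 22) and 7 in the 4 listed at 0. Protein-coding symbols of the table had medians of 22, 6 and 3 CG in the same 3 classes. The undecided LTBR had 27 CG. TNFRSF19, at 3.98 TPM, had 4 CG in its first entry and 20 in its second. The motif TATAAA, on either strand, occurred in 4 of the 28 promoters (14.3%), beside 8.97% for protein-coding symbols and 10.7% of all 35116 promoters in the table. The TNF receptors differed in the opposite direction: TNFRSF1A, at 22.3 TPM, had 4 CG, whereas TNFRSF1B, at 0.398 TPM, had 22. The 180 bases from 250 to 71 before the start are shown for both TNF receptors with each CG in capitals (TNFRSF1A on the reverse strand at chr12:6342147-6342326, TNFRSF1B on the forward strand at chr1:12166741-12166920). They hold 2 and 13 CG.
TNFRSF1A: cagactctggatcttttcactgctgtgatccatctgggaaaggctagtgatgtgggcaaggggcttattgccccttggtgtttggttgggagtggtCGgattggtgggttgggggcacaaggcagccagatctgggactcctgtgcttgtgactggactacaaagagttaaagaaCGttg
TNFRSF1B: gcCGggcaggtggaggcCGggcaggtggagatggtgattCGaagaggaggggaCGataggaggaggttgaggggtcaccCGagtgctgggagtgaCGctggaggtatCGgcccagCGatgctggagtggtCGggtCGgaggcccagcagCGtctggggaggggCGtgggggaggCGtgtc

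**Figure D4:**
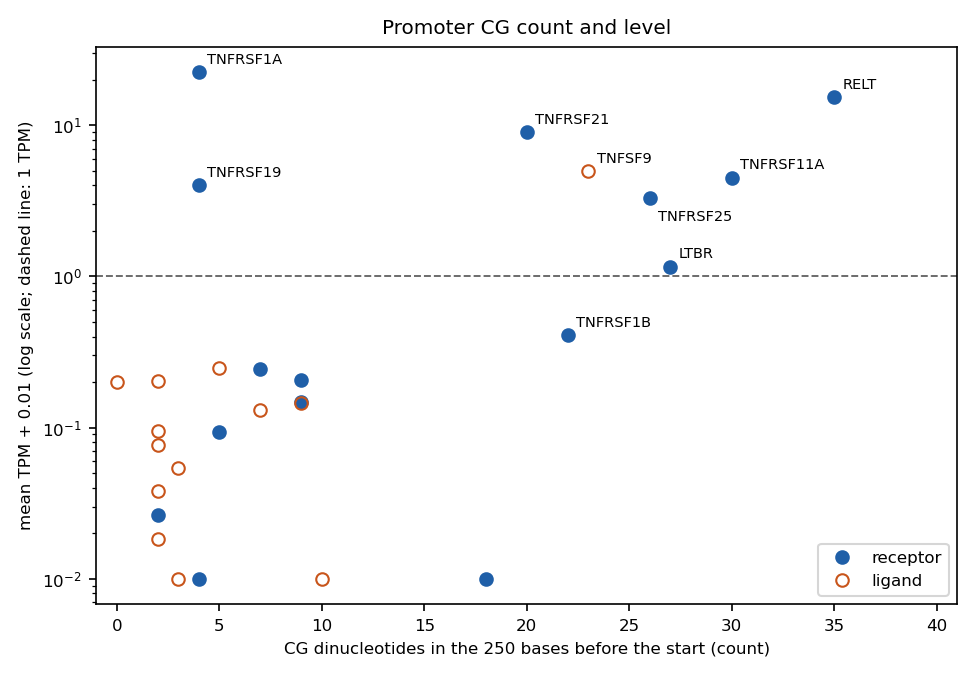
CG dinucleotides in the 250 bases before the start (horizontal axis, count) and mean TPM + 0.01 over 3 libraries (vertical axis, log scale) for the 28 members with a RefSeq promoter, filled for receptors and open for ligands. TNFRSF1A and TNFRSF19 stand high with 4 CG each, and TNFRSF1B stands below 1 TPM with 22.

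Several members lie in clusters, and genes of a cluster could differ widely in level (positions from GENCODE 29 on hg38). On chromosome 8 the TRAIL receptors TNFRSF10B, TNFRSF10C, TNFRSF10D and TNFRSF10A follow each other with gaps of 33410, 18150 and 26421 bases, at 30.02, 0.684, 4.01 and 0.0840 TPM. On chromosome 12 TNFRSF1A (chr12:6328757-6342114), LTBR (chr12:6375045-6391571) and CD27 (chr12:6444867-6451718) follow with gaps of 32930 and 53295 bases, at 22.3, 1.15 and 0.0166 TPM. On chromosome 19 the ligands TNFSF9 (chr19:6530999-6535928) and CD70 (chr19:6583183-6604103) lie 47254 bases apart at 4.96 and 4.95 TPM, and TNFSF14 follows 57149 bases further at 0.134 TPM. The chromosome 6 cluster of LTA, TNF and LTB, with gaps of 1242 and 2188 bases, was low throughout, and TNFRSF18 and TNFRSF4, 4634 bases apart on chromosome 1, were both listed at 0.

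The genes that act with or below the receptors were mostly well above 1 TPM. Of 47 names fixed for adaptors, kinases, NF-κB subunits, caspases, ubiquitin enzymes and shedding proteases, 46 were in the table (FAM105B, an older name of OTULIN, was not). Of these 41 were called above 1 TPM, 2 below, 2 were undecided and RIPK3 was listed at 0. The share called above was 89.1%, beside 61.5% of the 19802 protein-coding symbols, with genes at 0 included in both. The median log2 difference was 4.02 over the 45 tested, beside 3.42 over the protein-coding symbols tested. The 6 most abundant were the adaptor TRAF4 (69.0 ± 0.558 TPM), the NF-κB subunit RELA (47.0 ± 2.29), the shedding protease ADAM10 (42.9 ± 0.575), the death adaptor FADD (42.2 ± 1.13), the linear ubiquitin ligase subunit RBCK1 (42.0 ± 3.47) and the NF-κB restraining protein TNIP1 (39.7 ± 0.940).

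Of the list, 5 genes were not called above 1 TPM. RIPK3, a kinase of necroptosis, was listed at 0, and MLKL, the protein that carries necroptosis out, had 0.256, 0.770 and 0.219 TPM and was called below 1 TPM (adjusted p = 0.0292). The call of MLKL was lost without replicate 1 (adjusted p = 0.149) or without replicate 3 (adjusted p = 0.121), which left 1 gene of the list below. RIPK1, the kinase that acts with RIPK3, was called above 1 TPM with 16.9, 14.7 and 16.6 TPM (adjusted p = 2.62e-07), and was named after its values were seen. TRAF1, an adaptor induced by NF-κB, had 0.883, 0.791 and 0.756 TPM, and BIRC3, a ubiquitin ligase of the receptor complex, had 0.465, 1.07 and 0.896 TPM. Both were undecided (adjusted p = 0.117 and 0.262). With only coding transcripts summed, BIRC3 was called below 1 TPM (log2 difference -2.68, adjusted p = 0.000208). FAS, the death receptor of FASLG, had 3.08, 3.71 and 4.26 TPM, of which coding transcripts gave 57.9% ± 16.6, while FASLG was above 0 in replicate 2 alone, at 0.0247 TPM.

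**Figure D5:**
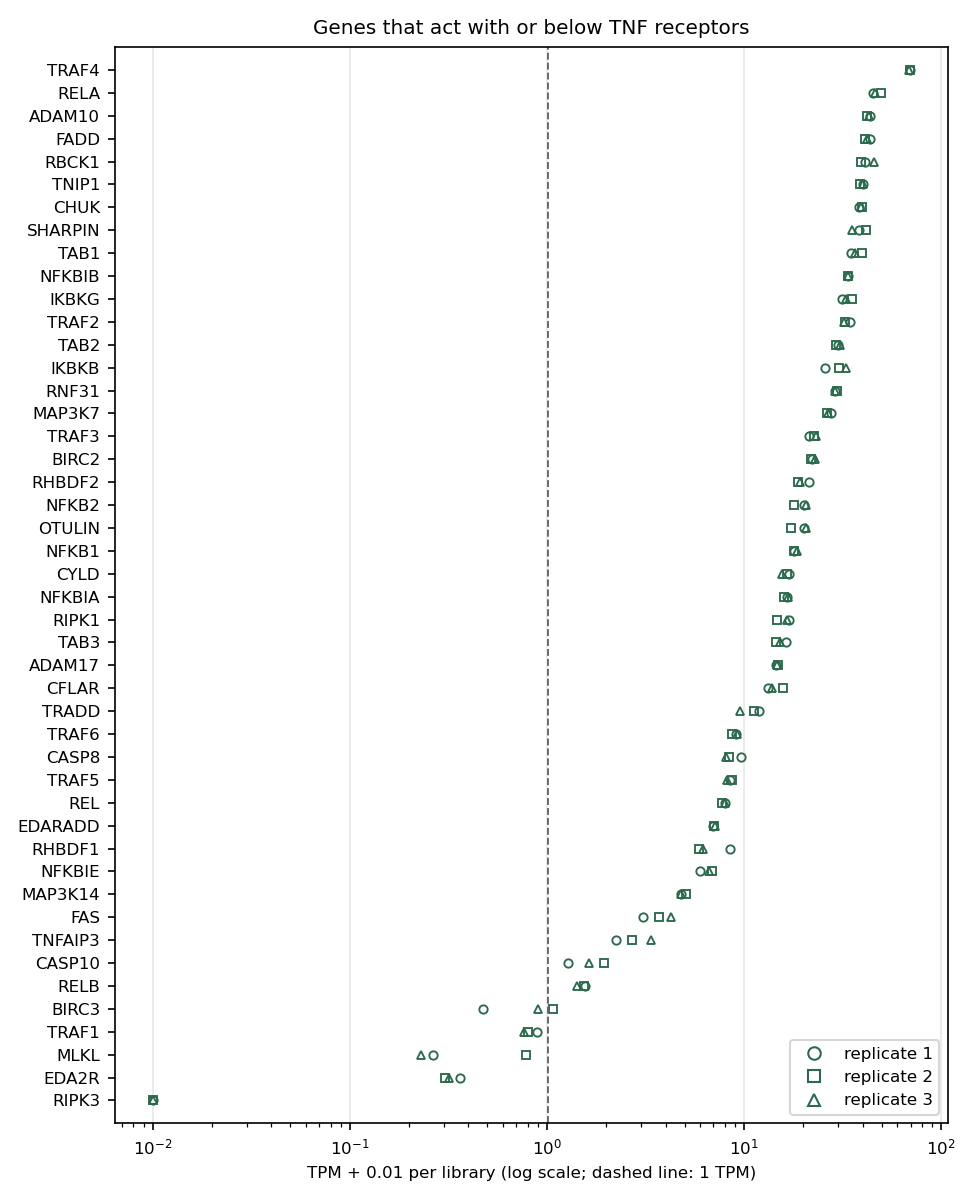
TPM + 0.01 in each of 3 libraries, on a log axis, of the 46 genes that act with or below TNF receptors, sorted by mean, with 1 marker shape per replicate. Points run from TRAF4 at 69.0 TPM down to RIPK3, listed at 0, and 41 genes are called above the dashed line at 1 TPM.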

How the data were processed

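Per the labels' protocols, Trizol RNA of untreated HEK293T cells was captured on oligo-dT and the library kit kept strand. The submitters' processing notes name kallisto and hg38. Which kallisto version, options and transcript set were used is not given in the sources used here, nor is the strand setting, so overlapping antisense genes may share reads. Per the file headers, the authors gave TPM for each transcript in each of 3 libraries, their mean, and 1 column of estimated counts. The deposited estimated counts named no library, equalled replicate 1 TPM within a relative difference of 1.08e-05 after division by effective length, and were used only to state depth, so no count model was run. TPM is scaled within a library, so a gene's value also depends on all others.

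TPM was summed per gene symbol. Transcript identifiers were matched to GENCODE 29 without regard to version (90.4% of transcripts, 96.9% of replicate 1 TPM, 99.6% of the same length); the authors' release may differ. Levels were tested with limma 3.58.1 in R 4.3.3 (moderated one-sample test of log2(TPM + 0.01), mean-variance trend, two-sided); the pseudocount understates differences of low genes. The script was also run on simulated data with normal noise on the log2 scale and 200 genes set at known folds. No result of that run is used here. Words of 31 bases, CG counts and sequences were computed in Python 3.11.15. TMM factors came from edgeR 4.0.16. Alternatives were other pseudocounts, levels, filters and scalings, coding transcripts only, and leaving out each library; counts of members at 0 under 2 of these were added after seeing the data.

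Members, lists and pairs were chosen with earlier results of these data known. The level of 1 blood cell marker of the list is not reported here. By the rule fixed for named genes, values per library were given for members with a mean of at least 1 TPM and for undecided members, others by range. Members below 1 TPM whose own values are printed, such as NGFR and LTA, were added to that rule after their values were seen. From the signalling list the rule named the 6 most abundant, those below, undecided or at 0, FAS and EDA2R.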

Additional observations from a re-analysis of the deposited data

How the results depend on the processing

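Over 14 alternatives and 37 members, 471 of 500 calls kept their direction and side of the threshold, 19 lost the threshold, 3 passed it and 7 changed sign. The sign changes were LTBR at a level of 2 TPM (log2 difference -0.89) and when 1 library was left out (-0.24 to 0.39; negative without replicate 2), NGFR (0.068), TNFRSF10C (0.44) and TNFSF12 (0.47) at a level of 0.5 TPM, TNFRSF13C at 2 TPM (-0.54) and TNFRSF25 on coding transcripts (-1.31). The change at another level follows from the level itself. With genes at 0 included, NGFR, TNFRSF10C, TNFRSF1B, TNFRSF8, TNFRSF9, TNFSF13 and TNFSF4 lost their calls (adjusted p 0.0527 to 0.107). The number of members below 1 TPM, 21 as reported, was 11 with a filter at a mean of 0.1 TPM, which leaves fewer genes to test, and 16 to 20 when 1 library was left out. Undecided members, 2 as reported, numbered 5 at 0.5 TPM, 0 at 2 TPM and 9 with genes at 0 included. When 1 library was left out they numbered 4 to 6. On coding transcripts 0 were undecided, as LTBR stood at 0 and TNFSF12 was called below (log2 difference -2.72, adjusted p = 0.000627). The cause of the other changes was not tested. Members at 0, 8 as reported, numbered 14 on coding transcripts and 8 to 10 when 1 library was left out. Signalling genes below 1 TPM, 2 as reported, numbered 0 at 0.5 TPM, 5 at 2 TPM and 3 on coding transcripts. They numbered 1 with genes at 0 included and 1 to 2 when 1 library was left out. With genes at 0 included, EDA2R (adjusted p = 0.0596) and MLKL (adjusted p = 0.123) lost their calls, so the 1 gene below was neither of these. Signalling genes above 1 TPM, 41 as reported, numbered 42 at 0.5 TPM and 39 at 2 TPM. They numbered 40 on coding transcripts, without replicate 2 and without replicate 3. Members above 1 TPM stayed between 13 and 15 under all 14 alternatives. No paired analysis was possible because the libraries formed 1 group. Depth limits the low members: LTA, TNFRSF13B and TNFRSF17 rested on 1 estimated count each in replicate 1, and TNFSF11, CD27 and FASLG on 0.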
